A study of Mus musculus with 9 samples.

Results

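In all, 10 transcription factor genes that set the fate of intestinal epithelial cells are described here at every probe set that the array annotation pairs with them. They are Atoh1, Gfi1, Spdef, Foxa1, Foxa3, Creb3l1 and Klf4 of the secretory side, and Hes1, Elf3 and Sox9 of the absorptive and progenitor side. They were taken as a list by name. All 10 of 10 were measured, through 13 probe sets, among 18193 genes on the array, and all 10 passed the filter on low values that left 11273 genes for testing.

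The arrays measured RNA of colonic mucosa from male mice aged 6 weeks on a C57BL/6 background. Wild-type mice (WT), mice without the gastrin gene (genotype Gas-/-, here GasKO) and transgenic mice carrying hGAS gave 3 arrays each, 9 in all. The labels give neither the promoter of the transgene nor the state of the mouse gastrin gene in hGAS mice, and they leave it unsaid whether each array came from its own mouse, so a p-value here reflects only the spread among arrays of a group. The title of the series points to progastrin, the precursor made from the gastrin gene, and to proliferation that depends on it.

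In the intestinal crypt, Notch signalling between neighbouring cells divides dividing progenitors into absorptive and secretory cells. A cell that receives a Notch signal expresses HES1, which represses Atoh1, and becomes an absorptive colonocyte. A cell that escapes it expresses ATOH1, and further factors then steer it to a goblet, enteroendocrine or other secretory fate: GFI1 and SPDEF favour goblet cells, and FOXA1, FOXA3, CREB3L1 and KLF4 act in goblet or secretory cells.

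Epithelial and stromal RNA were both abundant in the samples. All 7 epithelial marker genes tested (among them Epcam, Cdh1 and Vil1) stood between log2 12.41 and 14.23 on every array. Markers of smooth muscle (Acta2, 13.75 to 13.96, and Myh11, 13.04 to 13.30) and fibroblasts (Col3a1, 13.68 to 13.88) were also high, whereas 5 T cell markers (Cd3e, Cd3d, Cd3g, Cd8a and Cd4) stayed under log2 4, the level called near background here. The probe set of Gast lay between 1.93 and 2.14 on all arrays and so checks neither genotype. Array medians lay between 4.13 and 4.16. Pearson correlations of whole arrays ran from 0.990 to 0.996 inside a group, from 0.981 to 0.992 between hGAS and WT, and from 0.970 to 0.983 between GasKO and either other group. Of all genes tested, 12.1% were called in GasKO vs WT, 1.16% in hGAS vs WT and 16.6% in hGAS vs GasKO (adjusted p under 0.05, limma with Benjamini-Hochberg adjustment).

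Atoh1 was the only lineage factor called in any comparison between genotypes. It was lowest in GasKO, intermediate in WT and highest in hGAS, and no array of any group overlapped another group. Spdef (0.87 higher on the log2 scale in hGAS than in GasKO) and Foxa1 (0.15 higher) had no overlap between those groups but did not pass the test, and the remaining 7 factors did not pass it in any comparison. The group means of Spdef (8.56, 8.76 and 9.43) and Foxa1 (10.59, 10.63 and 10.74) rose in the same order, GasKO, WT, hGAS. In GasKO vs WT, however, the arrays of both genes overlapped (differences -0.19, SE 0.27, and -0.04, SE 0.06). The share of all genes with means in this order was not computed. Of the 10 factors, 1 was called in GasKO vs WT, where 12.1% of all genes were called (5.48% lower, as Atoh1 was), and 1 in hGAS vs GasKO, where 16.6% were (8.05% higher, as Atoh1 was). In hGAS vs WT none was called by limma, and 2 (Atoh1 and Spdef) had an unadjusted p under 0.05, which 14.2% of all genes had. That unadjusted count was 1 in GasKO vs WT, beside 25.9% of all genes, and 3 in hGAS vs GasKO, beside 31.2%. In a fit to single probe sets, 1, 0 and 1 of the 12 tested were called in GasKO vs WT, hGAS vs WT and hGAS vs GasKO, beside 11%, 0.873% and 14.8% of all probe sets, with Atoh1, Spdef and 1 Klf4 probe set at an unadjusted p under 0.05 in hGAS vs WT.

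Atoh1, which encodes the bHLH factor required for all secretory lineages of the gut, was read by a single probe set, 1449822_at. Its log2 values were 9.80, 10.01 and 9.94 in WT, 9.58, 9.73 and 9.70 in GasKO, and 10.06, 10.10 and 10.13 in hGAS. Every GasKO array lay below every WT array, and every hGAS array lay above. Among the 10 factors Atoh1 was alone in lacking overlap in GasKO vs WT (31.1% of all genes lacked it, 15% with GasKO lower) and in hGAS vs WT (17.7%, 9.35% with hGAS higher). The 3 groups lay apart in this rising order, GasKO, WT, hGAS, in 1.04% of all genes tested. Over 3 arrays each, WT averaged 9.91 ± 0.11 (SD), GasKO 9.67 ± 0.08 and hGAS 10.10 ± 0.04.

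Atoh1 rose 1.34-fold in hGAS against GasKO (log2 difference 0.43, SE 0.06, 95% interval 0.28 to 0.57, adjusted p = 0.0018). In GasKO against WT it fell by 0.24 on the log2 scale (SE 0.06, adjusted p = 0.0351). Between hGAS and WT the difference was 0.18 (95% interval 0.04 to 0.33, adjusted p = 0.229). The F test over the 3 genotypes called Atoh1 (adjusted p = 0.00481) and none of the other 9 factors, with 15.8% of all genes called. The hGAS vs GasKO call held in all 22 alternative analyses, with differences from 0.38 to 0.46 and adjusted p from 7.5e-04 to 0.00992. The GasKO vs WT call held in 12 of 22 and kept its direction in all 22. Leaving out WT replicate 2 or 3, GasKO replicate 1, 2 or 3, or hGAS replicate 3 ended it, with adjusted p of 0.117, 0.0872, 0.128, 0.0503, 0.0773 and 0.0514.

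**Figure D1:**
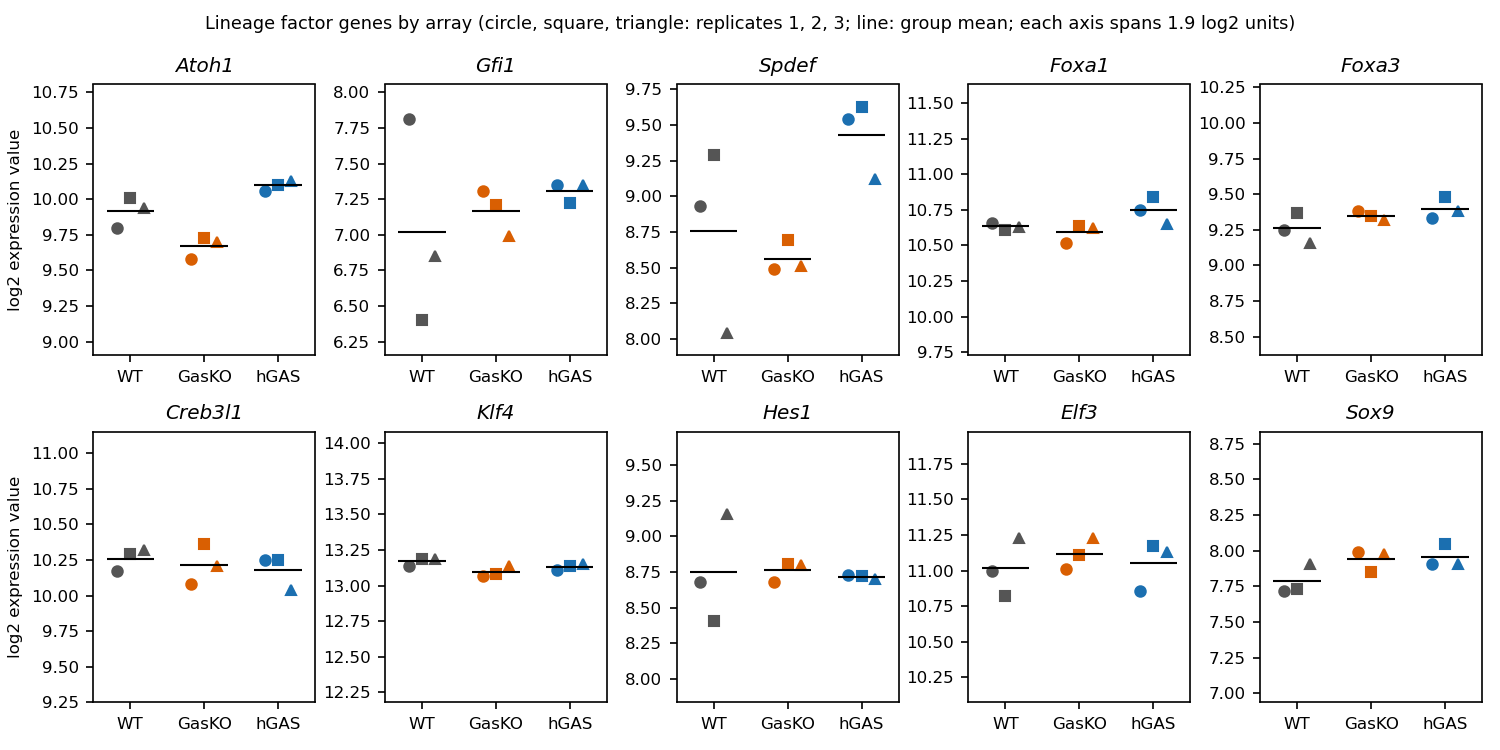
Log2 expression values (vertical axes, each spanning 1.9 log2 units) of the 10 lineage factor genes in WT, GasKO and hGAS mucosa, with 1 symbol per array (circle, square and triangle for replicates 1, 2 and 3) and a line at the group mean. The 3 groups of Atoh1 lie apart, from 9.58 in GasKO to 10.13 in hGAS, while Spdef and Gfi1 spread over more than 1 log2 unit among the WT arrays.

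Markers of other cell types and of the epithelium differed between the same groups, and their part in the results on Atoh1, Spdef and Foxa1 was not tested. In bulk mucosa, fewer cells of a type and less RNA per cell cannot be told apart. Of 7 epithelial markers, Epcam and Krt18 were called lower in hGAS vs GasKO and the other 5 were not called. The Krt18 call was lost without GasKO replicate 1 or 2 or hGAS replicate 1 or 2. The score of the list (each of the 7 genes centred on its own average, then averaged within an array) was 0.07 in all GasKO arrays, -0.04 to 0.01 in WT and -0.07 to -0.03 in hGAS. The score of 6 colon epithelium markers was -0.02 to 0.07 in GasKO, -0.29 to -0.03 in WT and 0.08 to 0.12 in hGAS, so the lists had their highest scores in different groups. Epcam, an epithelial adhesion gene, fell by 0.36 in hGAS vs GasKO (SE 0.04, adjusted p = 3.5e-04). Of the B cell markers, 5 of 5 tested were called lower in hGAS vs GasKO, where 16.6% of all genes were called in either direction. Fcmr and Cr2 were near background on all hGAS arrays, and without them, left out after seeing the data, 3 of 3 (Cd79a, Cd79b and Ms4a1) fell. The 5-gene score was 0.77 to 1.47 in GasKO, -0.03 to 0.60 in WT and -1.55 to -0.96 in hGAS, and the summed linear level was 420 to 709, 235 to 373 and 77.4 to 122. Of 7 macrophage markers, 5 fell, 2 without GasKO replicate 1 and 3 without hGAS replicate 3 (summed level 5400 to 6110 in GasKO, 4180 to 4340 in WT and 3360 to 4400 in hGAS). The plasma cell summed level was 30800 to 34500 in GasKO, 10900 to 18900 in WT and 20200 to 27500 in hGAS, with 1 of 6 genes (Pou2af1) called lower in hGAS vs GasKO, none without any 1 of the GasKO arrays or without hGAS replicate 1 or 3, and 3 without WT replicate 3. Of 7 fibroblast markers 3 fell, and 1 without GasKO replicate 2 or 3 or hGAS replicate 2 (29400 to 31200 in GasKO, 29700 to 30500 in hGAS). Limma called none of 7 smooth muscle and 7 endothelial markers, with 3 of each at an unadjusted p under 0.05, beside 31.2% of all genes. The call of Col14a1, 1 of those 3 fibroblast markers, was lost with the replicate number as a block (adjusted p = 0.0581). Among the B cell markers Pax5, and among the plasma cell markers Tnfrsf17, were near background on all arrays. The 3' minus 5' difference of the Gapdh control probe sets, a sign of RNA quality, was -0.12 to -0.09 in GasKO and -0.15 to -0.07 in hGAS, against -0.18 to -0.14 in WT. That of the beta-actin control probe sets was larger, at 0.87 to 0.94 in GasKO and 0.88 to 0.94 in hGAS, against 0.76 to 0.89 in WT.

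In GasKO vs WT, where Atoh1 fell, Epcam rose by 0.35 (SE 0.04, adjusted p = 5.3e-04), and 5 of 6 plasma cell markers were called higher, as they were on leaving out any 1 array. Called higher there were also 3 of 5 B cell, 3 of 7 macrophage and 3 of 7 fibroblast markers, beside 12.1% of all genes called. Without GasKO replicate 1 these counts were 0, 0 and 1. The B cell count was also 0 without WT replicate 2 or 3 and 1 without GasKO replicate 2 or 3, and the fibroblast count 1 without WT replicate 1 or 2, GasKO replicate 2 or 3 or hGAS replicate 3. Krt18 was called too (0.26, adjusted p = 0.0407), and of the 9 arrays only leaving out WT replicate 2 or GasKO replicate 3 kept that call. No smooth muscle or endothelial marker was called by limma, and 1 of each had an unadjusted p under 0.05, beside 25.9% of all genes. In hGAS vs WT 1.16% of all genes were called. Of the B cell markers there, 3 of 5 were called lower, and 2 of 3 (Cd79a and Cd79b) without Fcmr and Cr2. Neither of these 2 calls held without WT replicate 1, 2 or 3, GasKO replicate 2 or 3, or hGAS replicate 1 or 2, nor that of Cd79b without GasKO replicate 1. There limma called no smooth muscle, fibroblast, endothelial, macrophage or plasma cell marker. An unadjusted p under 0.05 was reached by 4 plasma cell, 1 fibroblast and 1 macrophage marker, beside 14.2% of all genes.

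Spdef encodes an ETS family factor that acts downstream of ATOH1 in the maturation of goblet cells. Its log2 values at probe set 1450220_a_at were 8.93, 9.29 and 8.04 in WT, 8.49, 8.69 and 8.51 in GasKO, and 9.54, 9.63 and 9.12 in hGAS. All hGAS arrays lay above all GasKO arrays, while the WT arrays spread across both, with WT replicate 3 the lowest of the 9 arrays. Spdef was 1.82-fold higher in hGAS than in GasKO (log2 difference 0.87, SE 0.27, 95% interval 0.26 to 1.47) and missed the threshold (adjusted p = 0.0557). It was called in 7 of 21 alternatives, with adjusted p from 0.00427 to 0.155, and in 2 of the 9 that left out 1 array. With the replicate number as a block, for which same-numbered arrays of these 2 groups deviated together, the adjusted p was 0.0125, and with the 6 arrays of the 2 groups alone it was 0.00625. It was 0.0299 without WT replicate 2 and 0.00427 without WT replicate 3, although the difference itself did not change, since the WT arrays enter only through the estimate of the spread. Against WT, Spdef stood at 0.67 in hGAS (95% interval 0.07 to 1.28, adjusted p = 0.292), and at 0.32 without WT replicate 3. In GasKO vs WT it stood at -0.19 (SE 0.27), and at 0.08 without WT replicate 2.

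Foxa1 and Foxa3 encode related forkhead factors that open chromatin and take part in secretory cell differentiation. Foxa1 stood at 10.66, 10.61 and 10.63 in WT, 10.52, 10.64 and 10.62 in GasKO, and 10.75, 10.84 and 10.65 in hGAS. The hGAS arrays lay just above the GasKO arrays, by a mean of 0.15 (95% interval 0.02 to 0.28, adjusted p = 0.108). Foxa3 stood at 9.25, 9.37 and 9.16 in WT, 9.38, 9.35 and 9.32 in GasKO, and 9.33, 9.48 and 9.38 in hGAS. These groups overlapped, with log2 differences of 0.09 in GasKO vs WT, 0.14 in hGAS vs WT (95% interval -0.01 to 0.28) and 0.05 in hGAS vs GasKO (95% interval -0.10 to 0.19). The groups hGAS and GasKO did not overlap in 3 of the 10 factors (Atoh1, Spdef and Foxa1), all higher in hGAS, where 18.2% of all genes were higher and 36.7% did not overlap in either direction.

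The 250 bases before the RefSeq start of these 3 genes are shown, as the stretch of each gene nearest to where transcription begins. They come from RefSeq (GRCm38.p6), are written 5' to 3' on the gene's strand, and lie at chr6:64728875-64729124 (plus strand) for Atoh1, chr17:27728952-27729201 (minus strand) for Spdef and chr12:57546112-57546361 (minus strand) for Foxa1. Capitals mark matches, on either strand, to CAGCTG (the E box that ATOH1 dimers bind), TGGGAA (the core read by RBPJ, the DNA-binding partner of Notch), TGTTTAC (read by forkhead factors) or CACNAG (the N box read by HES1).
Atoh1: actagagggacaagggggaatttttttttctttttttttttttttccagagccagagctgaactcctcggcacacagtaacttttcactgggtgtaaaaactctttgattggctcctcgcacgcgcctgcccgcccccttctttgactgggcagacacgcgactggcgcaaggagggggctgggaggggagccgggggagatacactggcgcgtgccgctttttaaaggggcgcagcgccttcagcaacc
Spdef: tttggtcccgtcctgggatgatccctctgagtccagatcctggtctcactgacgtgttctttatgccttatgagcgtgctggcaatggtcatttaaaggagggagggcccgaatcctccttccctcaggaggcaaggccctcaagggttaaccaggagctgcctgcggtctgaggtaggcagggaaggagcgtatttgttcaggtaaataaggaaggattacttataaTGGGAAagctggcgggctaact
Foxa1: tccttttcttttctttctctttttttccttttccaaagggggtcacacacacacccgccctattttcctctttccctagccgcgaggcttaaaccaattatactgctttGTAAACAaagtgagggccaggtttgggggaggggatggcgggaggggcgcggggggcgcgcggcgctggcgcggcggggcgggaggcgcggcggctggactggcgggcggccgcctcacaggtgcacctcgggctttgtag
The Spdef window holds TGGGAA once, and the Foxa1 window holds the forkhead motif once, on the opposite strand. The Atoh1 window holds none of the 4 motifs. Of the 7 factors with an entry in the RefSeq promoter table, Klf4 has CAGCTG once, Elf3 has TGGGAA and CACNAG once each, and Gfi1 (at 2 start sites) and Foxa3 have no match. That table does not hold every gene and lists some at several start sites. In its 32851 distinct windows of the same length, CAGCTG occurs in 13.0%, TGGGAA in 21.6%, TGTTTAC in 3.17% and CACNAG in 36.7%. These motifs do not overlap each other in the windows shown. A match is a run of letters and not a measured binding site.

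Gfi1 encodes a zinc finger repressor that keeps secretory progenitors from the enteroendocrine fate and is also expressed in blood cells. Its values were 7.81, 6.40 and 6.85 in WT, 7.31, 7.21 and 6.99 in GasKO, and 7.35, 7.22 and 7.35 in hGAS. The WT arrays included both the highest value, in replicate 1, and the lowest, in replicate 2, and spanned both other groups. The difference was 0.15 in GasKO vs WT (95% interval -0.48 to 0.79) and 0.29 in hGAS vs WT (-0.35 to 0.92), so a change of up to 1.89-fold was not resolved. Without WT replicate 1 the estimates were 0.55 (adjusted p = 0.0504) and 0.68, and without WT replicate 2 they were -0.16 and -0.02.

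Creb3l1 encodes a membrane-bound factor of the CREB3 family that is released by proteolysis. Its values were 10.17, 10.29 and 10.32 in WT, 10.08, 10.36 and 10.21 in GasKO, and 10.25, 10.25 and 10.04 in hGAS. The 3 groups overlapped, and all 3 differences lay between -0.08 and -0.03, with intervals from -0.27 to 0.15.

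Klf4, a zinc finger factor gene of mature goblet cells and surface epithelium, was read by 2 probe sets. At 1417394_at, the brighter probe set, it stood at 13.14, 13.19 and 13.19 in WT, 13.07, 13.08 and 13.14 in GasKO, and 13.11, 13.14 and 13.15 in hGAS. Of the 10 factors it had the narrowest intervals: -0.16 to 0.00 in GasKO vs WT, -0.12 to 0.04 in hGAS vs WT and -0.04 to 0.12 in hGAS vs GasKO. At 1417395_at the values were 12.20, 12.45 and 12.46 in WT, 12.21, 12.25 and 12.30 in GasKO, and 12.17, 12.13 and 12.25 in hGAS. In a fit to all 19822 probe sets that passed the filter, that probe set stood at -0.19 in hGAS vs WT (95% interval -0.35 to -0.03, adjusted p = 0.279), and it ordered hGAS below GasKO (-0.07), where the brighter one ordered it above (0.04). The 95% intervals of both differences between hGAS and GasKO included 0 (-0.04 to 0.12 at the brighter probe set and -0.23 to 0.09 at 1417395_at).

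**Figure D2:**
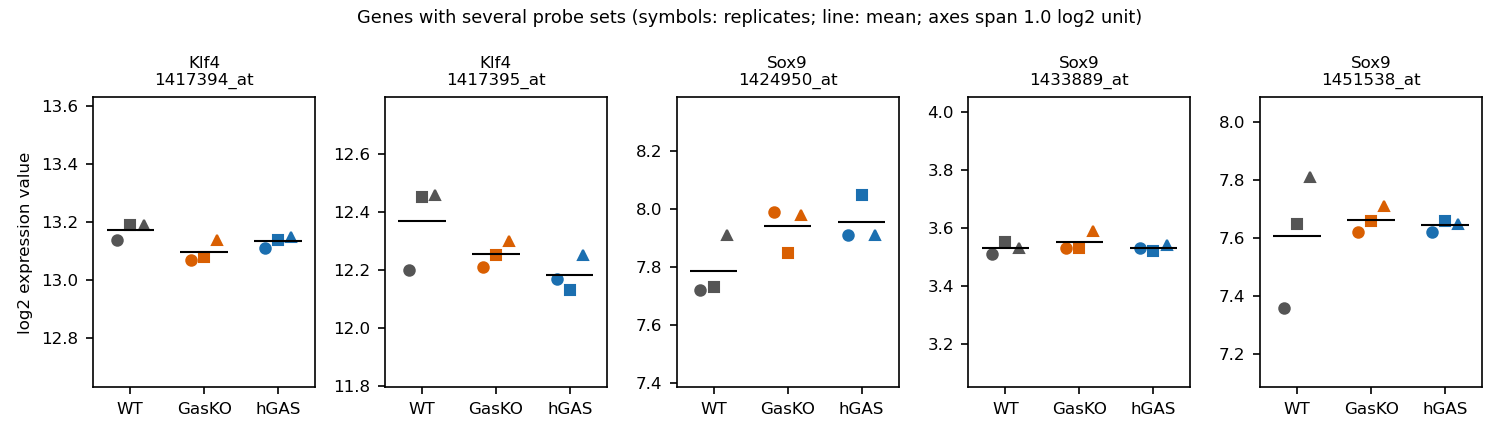
Log2 expression values (vertical axes, each spanning 1.0 log2 unit) of the 2 Klf4 and 3 Sox9 probe sets in each array, with symbols for replicates 1, 2 and 3 and a line at the group mean. WT replicate 1 is low at 1417395_at (12.20) and at 1451538_at (7.36), and 1433889_at lies between 3.51 and 3.59, near background.

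Hes1, the Notch target that represses Atoh1 and is expressed in many cell types, stood at 8.68, 8.41 and 9.16 in WT, 8.68, 8.81 and 8.80 in GasKO, and 8.73, 8.72 and 8.70 in hGAS. The WT arrays held both the lowest and the highest value, and the hGAS arrays lay within 0.03 of each other. The difference was 0.02 in GasKO vs WT, -0.02 in hGAS vs WT and -0.04 in hGAS vs GasKO (95% interval -0.38 to 0.30), so a change of up to 1.3-fold between hGAS and GasKO was not resolved.

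Elf3, an ETS factor gene needed for the differentiation of enterocytes, stood at 11.00, 10.82 and 11.23 in WT, 11.01, 11.11 and 11.23 in GasKO, and 10.86, 11.17 and 11.13 in hGAS. The groups overlapped in every comparison, and the 3 differences lay between -0.06 and 0.10 with intervals from -0.32 to 0.36. Tgfbr2, a known ELF3 target that encodes a TGF-beta receptor, fell by 0.32 in hGAS vs GasKO (SE 0.06, adjusted p = 0.00549), with 10.99, 11.08 and 11.09 in GasKO and 10.69, 10.77 and 10.73 in hGAS. With its probe sets averaged Tgfbr2 stood at -0.17 and was not called.

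Sox9, a factor gene of stem and progenitor cells at the crypt base, was read by 3 probe sets. At 1424950_at it stood at 7.72, 7.73 and 7.91 in WT, 7.99, 7.85 and 7.98 in GasKO, and 7.91, 8.05 and 7.91 in hGAS. WT held the 2 lowest values, and the estimate was 0.15 in GasKO vs WT (95% interval -0.02 to 0.33, adjusted p = 0.241) and 0.17 in hGAS vs WT (adjusted p = 0.368). At 1451538_at the values were 7.36, 7.65 and 7.81 in WT, 7.62 to 7.71 in GasKO and 7.62 to 7.66 in hGAS, with differences of 0.06 and 0.04 from WT. The third probe set, 1433889_at, lay between 3.51 and 3.59 on all arrays and was not tested.

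**Figure D3:**
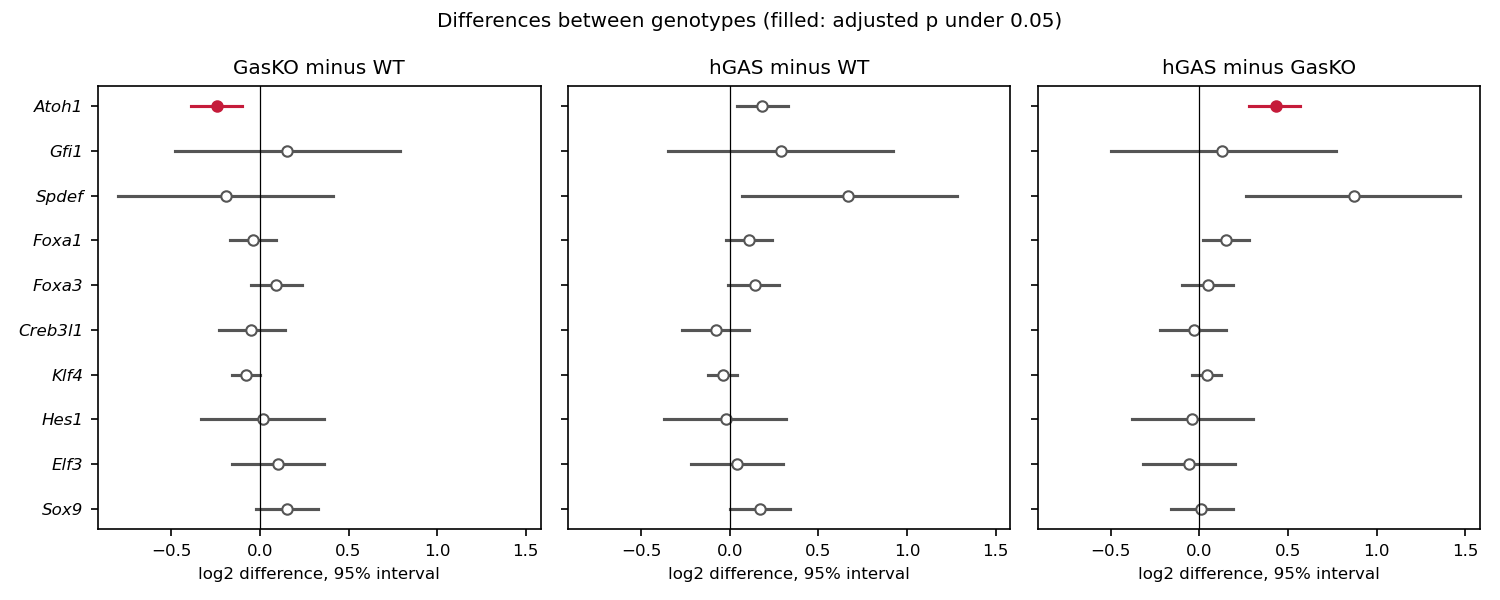
Log2 differences between genotypes (horizontal axes) of the 10 lineage factors, with 95% intervals from the fit, filled where the adjusted p was under 0.05. Atoh1 is filled at -0.24 in GasKO minus WT and at 0.43 in hGAS minus GasKO, and the widest intervals are those of Gfi1 and Spdef.

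The median absolute log2 difference of the 10 factors was 0.10 in GasKO vs WT, 0.13 in hGAS vs WT and 0.05 in hGAS vs GasKO, beside 0.11, 0.08 and 0.12 for all genes tested. The median signed difference of the 7 secretory factors was -0.05, 0.14 and 0.13 in these comparisons, and that of Hes1, Elf3 and Sox9 was 0.10, 0.04 and -0.04, beside 0.01, 0.01 and 0.00 for all genes.

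Of 34 genes listed for the Notch pathway that acts on these factors, 23 were tested. None was called by limma in GasKO vs WT or in hGAS vs WT. An unadjusted p under 0.05 was reached by 8 and 1 of them, beside 25.9% and 14.2% of all genes. In hGAS vs GasKO 1 rose and 1 fell, beside 16.6% of all genes called. The ligand gene Jag1 rose by 0.26 (SE 0.06, adjusted p = 0.0156), from 7.43, 7.46 and 7.53 in GasKO to 7.70, 7.78 and 7.73 in hGAS, with WT between at 7.63, 7.57 and 7.63. As for Atoh1, the 3 groups of Jag1 did not overlap. Rbpj, which encodes the DNA-binding protein of the pathway, fell by 0.27 (SE 0.06, adjusted p = 0.0191), from 8.97, 8.95 and 8.92 in GasKO to 8.59, 8.75 and 8.70 in hGAS, and overlapped between hGAS and WT (8.77, 8.65 and 8.83). The Jag1 call was lost without GasKO replicate 1 (adjusted p = 0.0594). The Rbpj call was lost without GasKO replicate 1, 2 or 3 or hGAS replicate 1 (adjusted p = 0.0683, 0.0509, 0.0512 and 0.0666).

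Among the ligands of crypt epithelium, Dll1 stood at 6.77 ± 0.06, 6.68 ± 0.17 and 6.59 ± 0.16 and Dll4 at 4.92 ± 0.23, 4.56 ± 0.06 and 4.67 ± 0.14 (log2 mean ± SD in the order WT, GasKO, hGAS, n = 3), and neither was called. Dll4 had an unadjusted p under 0.05 in GasKO vs WT, and was called lower there on leaving out WT replicate 2 but no other array. The receptor genes Notch1 (8.19 ± 0.20, 8.27 ± 0.10 and 8.14 ± 0.15) and Notch2 (7.88 ± 0.05, 7.85 ± 0.11 and 7.63 ± 0.12) were not called either. Notch2 was called lower in hGAS vs GasKO on leaving out hGAS replicate 2 but no other array. Hes5, Hes7, Hey1, Hey2, Heyl and Olfm4, further Notch targets, were near background on all arrays. Nrarp, another target, was readable at 7.63 to 8.07 over all arrays. It was not called in any comparison, but had an unadjusted p under 0.05 in GasKO vs WT and in hGAS vs GasKO.

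Among factors of other secretory fates, Neurog3, Pax4, Pax6 and Nkx2-2 of enteroendocrine cells and Pou2f3 and Gfi1b of tuft cells were near background on all arrays. Isl1, an enteroendocrine factor gene that other cells also express, fell by 0.93 in hGAS vs GasKO (SE 0.24, adjusted p = 0.0299), from 6.86, 6.39 and 6.63 to 5.57, 5.47 and 6.06. That call was lost without GasKO replicate 1 or 3 or hGAS replicate 1 or 2 (adjusted p = 0.108, 0.0851, 0.1 and 0.0906).

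Goblet cell products were called in both directions. Of 23 tested, 4 were called higher and 4 lower in hGAS vs GasKO, 2 higher and 2 lower in GasKO vs WT, and none was called by limma in hGAS vs WT. Beside these counts, 16.6%, 12.1% and 1.16% of all genes were called. In hGAS vs WT 12 of the 23 had an unadjusted p under 0.05, beside 14.2% of all genes. The list median was 0.10, 0.11 and 0.07 in these comparisons. Without St6galnac1, left out after seeing the data because all its arrays in a compared group lay under log2 4, the counts were 4 higher and 3 lower, 1 higher and 2 lower, and none, and the medians 0.11, 0.11 and 0.14. The hGAS vs GasKO counts over the genes tested depended on single arrays: 1 to 9 rose (9 without WT replicate 3, 2 without GasKO replicate 2, 1 without GasKO replicate 1 or 3 or hGAS replicate 1) and 2 to 5 fell (2 without any 1 of the GasKO arrays). Without a GasKO array 22 genes were tested, as St6galnac1 then missed the filter. Its loss from the count that fell thus came from the filter. Ern2, which encodes a stress sensor of the goblet cell endoplasmic reticulum, stood at 9.42, 9.61 and 9.41 in WT, 7.88, 8.17 and 8.13 in GasKO, and 9.52, 9.46 and 9.51 in hGAS. It was lower in every GasKO array and overlapped between hGAS and WT. Ern2 rose 2.71-fold in hGAS vs GasKO (SE 0.08 in log2, adjusted p = 4.7e-06). Going the other way, Fcgbp, a mucus protein gene, fell 1.38-fold (SE 0.09, adjusted p = 0.00907) and Tff3, the trefoil peptide gene, 1.16-fold (SE 0.03, adjusted p = 0.0027). The probe set that stands for the sialyltransferase gene St6galnac1 read 9.19, 8.87 and 9.25 in GasKO and 2.78 to 2.94 on the WT and hGAS arrays, near background, so the gene entered the tests only through GasKO and is given no fold. Over 19 alternatives, among them the average of its probe sets, its log2 difference in GasKO vs WT ranged from 3.20 to 6.28. The size of this difference thus depended on the setting. In GasKO vs WT, Ern2 fell by 1.42, and Spink4, a goblet cell peptide gene (0.36, adjusted p = 0.035), and Rep15 (-0.40, adjusted p = 0.0274) were called. Spink4 missed the threshold on leaving out WT replicate 2 or 3, GasKO replicate 1, 2 or 3, or hGAS replicate 3 (adjusted p = 0.0838, 0.0665, 0.134, 0.0641, 0.0772 and 0.0521), and for Rep15 the same happened on leaving out WT replicate 1, WT replicate 2, GasKO replicate 1 or GasKO replicate 3 (adjusted p = 0.065, 0.0971, 0.0726 and 0.102). WT replicate 3, the array with the lowest Spdef, also had the lowest goblet score (-0.70, against -0.01 at the top of WT, 0.12 to 0.19 in GasKO and 0.03 to 0.13 in hGAS). Without Retnlb and B3gnt6, chosen after seeing the data because their SD among WT arrays was over 1, that array's score was -0.35, and the others lay between -0.06 and 0.16. WT replicate 3 also had the lowest plasma cell (-1.39) and colon epithelium (-0.29) scores of the 9 arrays, and the highest smooth muscle score (0.15). A link between Spdef and any of these scores was not tested.

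Of 17 products of absorptive cells, 4 were called higher and 2 lower in hGAS vs GasKO, 1 higher and 2 lower in GasKO vs WT, and 1 higher and 1 lower in hGAS vs WT, with list medians of -0.04, -0.01 and -0.02. Beside these counts, 16.6%, 12.1% and 1.16% of all genes were called. Without Slc51a, left out for the same reason, the count in hGAS vs GasKO was 3 higher and 2 lower and the other counts stood as given. Over the 17 genes, the count higher in hGAS vs GasKO was 2 without GasKO replicate 1 or 3. Without hGAS replicate 2 it was 1 of 16 tested, as Slc51a then missed the filter. Ceacam20, a brush border gene, rose 2.53-fold in hGAS vs GasKO (10.47, 10.63 and 10.64 against 9.16, 9.21 and 9.34), and Guca2b, the uroguanylin gene, fell 1.8-fold (7.61, 7.65 and 7.63 against 8.46, 8.54 and 8.43). Slc51a, a bile acid transporter subunit gene, was near background in WT and GasKO (2.47 to 2.52) and stood at 5.45, 8.22 and 4.32 in hGAS. In GasKO vs WT, Ceacam20 fell by 1.56, Guca2b rose by 1.28 and Car4, a carbonic anhydrase gene, fell by 0.31 (adjusted p = 0.0046). In hGAS vs WT, Car1, another carbonic anhydrase gene, rose by 0.47 (adjusted p = 0.016) and Car4 fell by 0.36 (adjusted p = 0.0162), and neither call held without hGAS replicate 1 (adjusted p = 0.0661 and 0.0834) or 2 (0.056 and 0.0648), nor that of Car1 without WT replicate 1 (0.0581).

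**Figure D4:**
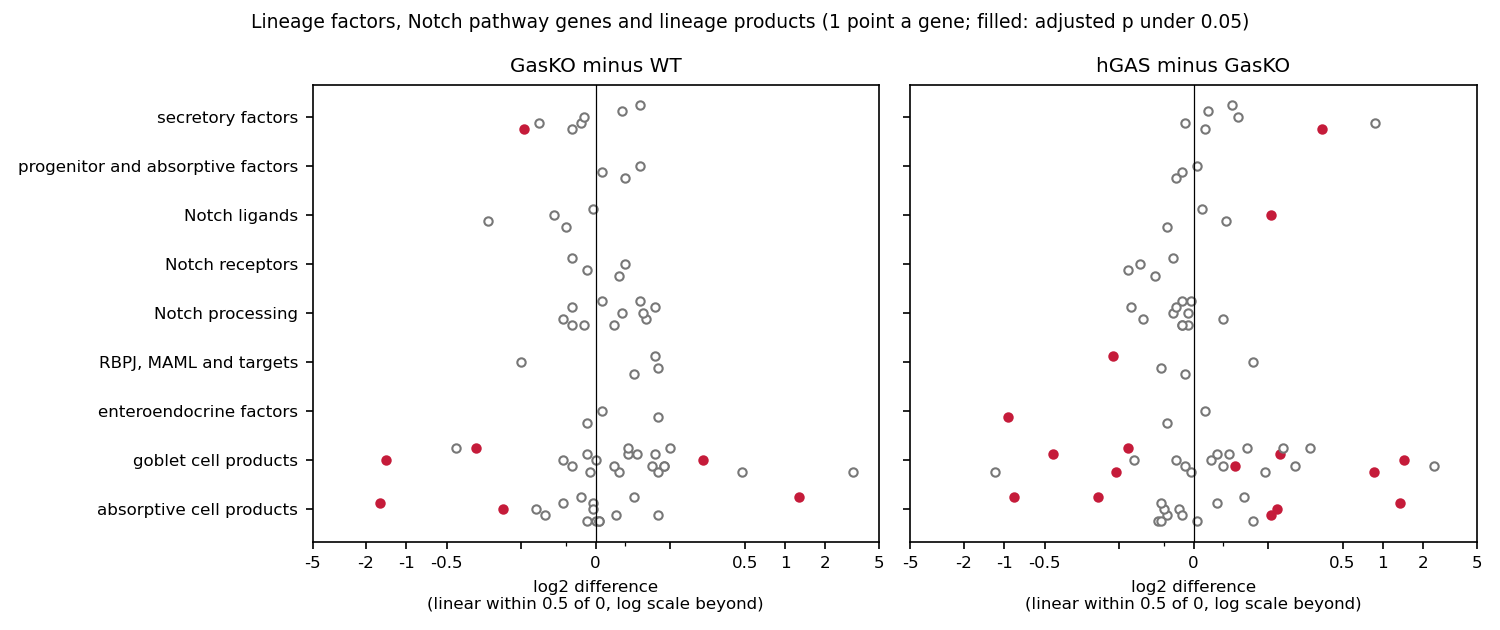
Log2 differences (horizontal axes, linear within 0.5 of 0 and logarithmic beyond) of lineage factors, Notch pathway genes and lineage products in GasKO minus WT and hGAS minus GasKO, with 1 point a gene, filled where the adjusted p was under 0.05. St6galnac1 and Slc51a, near background in a compared group, are not drawn. Filled points of goblet and absorptive products lie on both sides of 0, such as Ern2 at 1.44 and Guca2b at -0.85 in hGAS minus GasKO, while 2 of 23 Notch genes are filled there.

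The genes outside the list whose values were most like those of Atoh1 over the 9 arrays were Mep1a, which encodes the brush border protease meprin A alpha (r = 0.962), Paqr5, a membrane progesterone receptor gene (r = 0.956), and Rab5if (r = 0.954). They were chosen for this likeness, so the correlations are a description, and the points share their genotype groups. Mep1a had group means of 10.96 in WT, 10.47 in GasKO and 11.18 in hGAS, Paqr5 of 7.09, 6.78 and 7.44, and Rab5if of 11.16, 11.02 and 11.22.

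**Figure D5:**
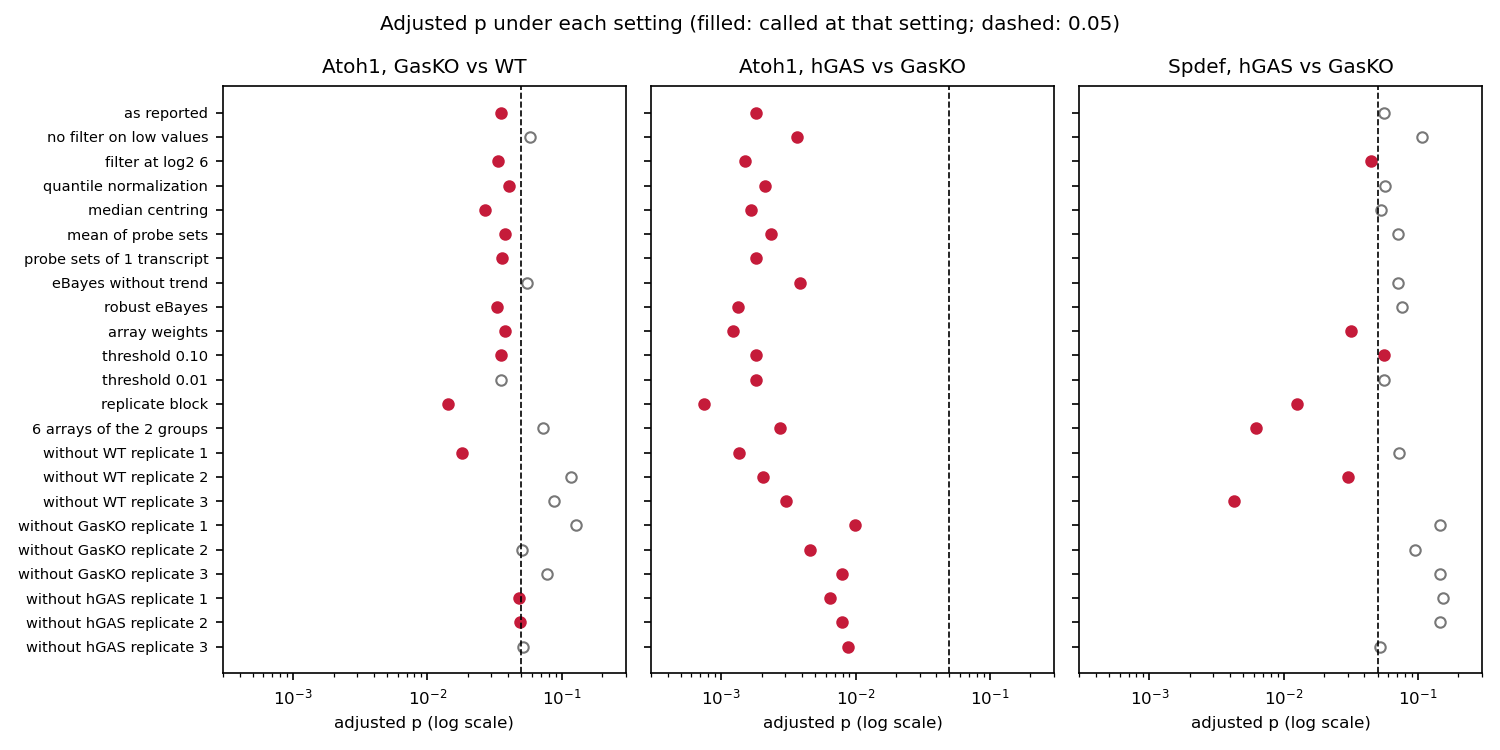
Adjusted p (horizontal axes, log scale) of Atoh1 in GasKO vs WT and hGAS vs GasKO and of Spdef in hGAS vs GasKO under each setting, filled where called at that setting, with a dashed line at 0.05. Atoh1 in hGAS vs GasKO is filled at every setting, with values from 7.5e-04 to 0.00992, and the other panels have points on both sides of the line.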

How the data were processed

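The authors deposited log2 values for 45101 probe sets on 9 arrays, made with GCRMA per the submitters' processing notes, with no version stated. In GCRMA, background is modelled from the bases of each probe, arrays are brought to a common distribution, and probes are combined into 1 value a set. Low values are compressed. Scanner files were not used here. The annotation paired 34945 probe sets with 1 gene, 34741 of them matched by Entrez number to RefSeq. Where a gene had several probe sets, the brightest on average stood for it, and it was tested if at least 3 arrays reached log2 4.

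With limma 3.58.1 in R 4.3.3, genotype alone entered a linear fit of 9 arrays and 11273 genes (eBayes with a mean-variance trend, 2-sided tests, Benjamini-Hochberg adjustment over all genes, called under 0.05). The fit was repeated over 19822 probe sets and tested on simulated data. Each pair of the 3 comparisons shares the arrays of 1 group. The number of arrays limits the precision.

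The factors and gene lists were chosen with earlier results of these data known. From each list (166 of 175 entries matched here) called members were named, up to 4 per comparison by smallest p, and summarised where many. For factors called by the F test, the 3 genes with the highest Pearson correlation were named.

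Replicate numbers recur across groups. Same-numbered arrays deviated together from their group means in hGAS vs GasKO (correlations 0.12, 0.20 and 0.27 across genes), where every pair exceeded 0.1. The reported values come from the fit without the block, and in hGAS vs GasKO the blocked value stands beside Spdef and Col14a1, whose calls it changes. The pairing comes from the data, not from a label. Alternatives covered filter, normalisation, probe sets, variance model, weights, threshold, block, arrays fitted and leaving out each array. Counts of lineage products and B cell markers without genes under log2 4 on every array of a compared group, and a goblet score without Retnlb and B3gnt6, were added after seeing the data.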

Additional observations from a re-analysis of the deposited data

How the results depend on the processing

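Each lineage factor was recomputed under up to 22 alternatives. The count called in GasKO vs WT was 1 as reported and 0 with no filter on low values, with eBayes without trend, at a threshold of 0.01 and in a fit to the 6 arrays of the 2 groups. Leaving out 1 array gave 0 to 1. In hGAS vs GasKO it was 1 as reported and 2 (Atoh1 and Spdef) with a filter at log2 6, array weights, a threshold of 0.10, the replicate block and 6 arrays, and 1 to 2 without single arrays. The F test called 1, 2 with the replicate block, and 1 to 2 without single arrays. Over probe sets, GasKO vs WT gave 0 without filter, without trend and at 0.01, and 0 to 2 without single arrays (Klf4 joined Atoh1 without WT replicate 1), and hGAS vs GasKO gave 2 at log2 6, with weights, at 0.10 and with the block, and 1 to 2 without single arrays.

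Signs turned only for differences that were not called. With probe sets averaged, Klf4 and Sox9 stood at -0.01 in hGAS vs GasKO. With array weights Sox9 stood at -0.01 there and Hes1 at 0.02 in hGAS vs WT, and with median centring Hes1 stood at 0.00 in GasKO vs WT. Without single arrays the ranges in GasKO vs WT were -0.16 to 0.55 for Gfi1, -0.55 to 0.08 for Spdef, -0.06 to 0.00 for Foxa1, -0.12 to 0.02 for Creb3l1, -0.15 to 0.22 for Hes1 and -0.00 to 0.21 for Elf3. In hGAS vs WT they were -0.02 to 0.68 for Gfi1, -0.19 to 0.18 for Hes1 and -0.06 to 0.15 for Elf3, and in hGAS vs GasKO -0.10 to 0.04 for Creb3l1, -0.12 to 0.04 for Elf3 and -0.03 to 0.04 for Sox9. The cause was not tested.

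In GasKO vs WT and hGAS vs WT the correlations of same-numbered arrays ran from -0.01 to 0.15 and from 0.08 to 0.25. Their medians were 0.15 and 0.20, beside 0.20 in hGAS vs GasKO, and the pairs with WT replicate 2 were under 0.1 (-0.01 and 0.08). The replicate block left the counts of lineage factors at 1 in GasKO vs WT and 0 in hGAS vs WT. It moved the count of all genes called in hGAS vs WT from 131 to 283. In 15 of 18 cases an array's deviations correlated best with its own number in another group. Over all genes, hGAS vs WT called 58 with no filter, 27 with 6 arrays, 340 at 0.10, 21 at 0.01, and 17, 39, 76, 77, 78, 59, 78 and 62 without hGAS replicate 1, 2 or 3, WT replicate 1 or 3, or GasKO replicate 1, 2 or 3. GasKO vs WT called 674 at 0.01, 845 without GasKO replicate 1 and 897 without GasKO replicate 3, in place of 1366, and hGAS vs GasKO called 1866, and 898, 1187 and 1167 likewise. The F test called 1785 genes, 844 at 0.01, and 1082 and 1050 without those arrays. Spdef and Foxa3 have no value with probe sets of 1 transcript, since their only probe set matches several. With 3 arrays a group, a difference like that of Gfi1 or Hes1 could not be resolved from the spread among WT arrays.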

Other observations

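Markers of enteroendocrine cells, another secretory lineage that needs ATOH1, had calls in both directions, although most of their own factors were near background. Of 8 tested, 3 rose and 1 fell in hGAS vs GasKO, 1 rose in GasKO vs WT and 1 rose in hGAS vs WT (limma, adjusted p under 0.05). Beside these counts, 16.6%, 12.1% and 1.16% of all genes were called. Sct, the secretin gene, stood at 5.09, 5.09 and 4.43 in WT, 4.89, 4.89 and 4.90 in GasKO, and 6.12, 6.96 and 6.33 in hGAS. All hGAS arrays of Sct lay above all others, 2.98-fold over GasKO (adjusted p = 0.00142) and 3.03-fold over WT (adjusted p = 0.0148). The WT and GasKO values of Sct were close to log2 4, the level called near background, where values are compressed, so the folds are uncertain. The call of Sct against GasKO held in all 22 alternatives, and that against WT in 20 of 22, not in the fit to 6 arrays (adjusted p = 0.0937) or at a threshold of 0.01.

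Tph1, which encodes the enzyme that makes serotonin precursor in enterochromaffin cells, rose 2.58-fold in hGAS vs GasKO (adjusted p = 0.0121), from 4.49, 4.35 and 4.44 to 6.00, 5.65 and 5.74. The GasKO values of Tph1 were likewise close to log2 4. Gcg, the proglucagon gene, rose 1.54-fold (adjusted p = 0.0285), from 9.62, 10.01 and 9.49 to 10.50, 10.22 and 10.27. In WT, Tph1 stood at 5.29, 6.07 and 4.60 and Gcg at 10.47, 10.41 and 9.94. Both genes overlapped between hGAS and WT, and neither was called there. Tac1, a tachykinin gene also expressed by neurons, fell 1.52-fold in hGAS vs GasKO (adjusted p = 0.0285), from 9.75, 9.83 and 9.62 to 9.28, 9.40 and 8.70, and had risen in GasKO vs WT (0.69, adjusted p = 0.02). Over 22 alternatives the log2 difference of Tac1 ranged from -0.75 to -0.31 in hGAS vs GasKO and from 0.35 to 0.74 in GasKO vs WT. Leaving out hGAS replicate 1 ended the Tph1 call and left 1 of the 3 rises, and leaving out WT replicate 1 or 2 or GasKO replicate 1 or 2 ended that of Tac1 in GasKO vs WT. The Gcg call ended without GasKO replicate 1 or 3 or hGAS replicate 1 or 3, and the Tac1 call against GasKO without any 1 of the GasKO arrays.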
